A study of Mus musculus with 4 samples.

Results

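Solute carriers are the membrane proteins that move nutrients, ions, metals and metabolites across the plasma membrane and the membranes of organelles, and their genes carry symbols that start with Slc, a family number and a member letter and number. The genes described here are those whose symbol starts with Slc followed by a digit, except Slc2a1, Slc2a3, Slc16a3, Slc7a11, Slc7a5 and Slc3a2, which the rule left out. Of 341 such genes with a probe set that named no other gene, 232 (68.0%) had a value above 6.20 on at least 1 of 4 arrays and were kept as members, chosen by that highest value, out of 12440 genes kept in the whole series. The value 6.20 is the median of all deposited values. The rule used no difference between arrays, yet a member that passed on 1 array alone had to be lower on another. Just inside the limit lay Slc4a4 and Slc7a13 at 6.23, and just outside it Slc6a3 and Slc7a15 at 6.15. By symbol, 7 of the members are no transporters: the scaffold genes Slc9a3r1 and Slc9a3r2, the adaptor gene Slc4a1ap, the pseudogene Slc2a4rg-ps, and Slc7a6os, Slc36a1os and Slc6a19os, named for lying opposite a transporter gene.

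Gene expression was measured on Affymetrix arrays in mouse CD4+ T cells, sorted as naive CD44-CD62L+ cells from C57BL/6J mice (spleen and lymph nodes) carrying the OT2 T cell receptor transgene, and cultured for 72 h towards the IL-17-producing Th17 fate with plate-bound anti-CD3, anti-CD28, IL-6 (20 ng/ml), TGF-β (2 ng/ml) and anti-IL-4. The groups were STAT3 wild type (stat3 fl/fl OT2), STAT3-deficient (CD4-Cre stat3 fl/fl OT2), STAT5 wild type (stat5 fl/fl OT2) and STAT5-deficient (CD4-Cre stat5 fl/fl OT2), with 1 array each. Both STAT3 groups received anti-IL-2 (10 µg/ml) and both STAT5 groups received IL-2 (100 IU/ml), so the controls differ in floxed line and in IL-2, and these cannot be told apart. Cre was driven by the Cd4 promoter, which acts from thymic development on, and the labels do not say how many mice each culture came from. With 1 array per group no test, error or p-value can be given, and precision is limited by having so few arrays. A call of higher or lower means that the log2 values of a pair of arrays differed by 1 (2-fold) or more.

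Activated T cells grow fast and take up amino acids, glucose, phosphate and metals through solute carriers, and mitochondrial carriers exchange metabolites between cytosol and matrix. Zinc enters the cytosol through carriers of the Slc39 (ZIP) family and leaves it through the Slc30 (ZnT) family, and free zinc is bound by metallothioneins. STAT3 and STAT5 are transcription factors activated by IL-6 and IL-2, and the study compared cells with and without each of them.

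The labels were checked first. Stat3 stood at 12.87 in its control and 9.93 in STAT3-deficient cells, Stat5a at 10.92 and 5.91 and Stat5b at 11.33 and 6.09 in the STAT5 pair. All 6 measured CD4 T cell markers lay above 6.20 on all 4 arrays. Of the measured markers of other cells, the highest on any array was 8.06 for CD8 T and NK cells (Cd8b1), 8.06 for erythroid cells (Epor), 7.73 for myeloid cells (Csf1r) and 6.67 for B cells (Cd79b). Of the marker genes kept, Epor was the one past 2-fold in any comparison, at 8.06 and 6.73 in the STAT3 pair (-1.32), and its part in the results was not tested. Array medians over all probe sets ran from 6.10 (STAT3-deficient) to 6.34 (STAT3 wild type), so STAT3-deficient values sit 0.24 lower before any gene is considered. In bulk RNA, fewer cells of a type and less RNA per cell cannot be told apart.

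In STAT3-deficient cells many solute carrier genes were lower than in their control, and few were higher. Of 232 members, 28 (12.1%) were lower by 2-fold or more, where 7.23% of all genes were lower. Only 3 members (1.29%) were higher, against 2.85% of all genes. In both directions together the members had 31 calls (13.4%), against 10.1% of all genes. The median difference was -0.28 for the members and -0.20 for all genes, and 178 members lay below 0 (69.3% of all genes did). The share of lower genes among the called members was 90.3% as deposited, 68.0% after subtracting each array's median (17 lower, 8 higher) and 70.4% with intensity-dependent centring (19 lower, 8 higher). Median centring moved the median of all genes to 0.04, and it gave 7.33% of members lower and 3.45% higher, against 4.74% and 4.13% of all genes. It left 11 members short of 2-fold, Slc35f6 (-0.99), Slc38a6 (-0.98), Slc5a7 (-0.97), Slc66a2 (-0.95), Slc12a1 (-0.94), Slc35f5 (-0.91), Slc4a8 (-0.89), Slc6a8 (-0.84), Slc27a5 (-0.83), Slc4a2 (-0.79) and Slc25a26 (-0.77). It put 5 past it, Slc43a1 (1.23), Slc7a3 (1.15), Slc6a13 (1.10), Slc29a1 (1.10) and Slc23a2 (1.09). Intensity-dependent centring gave 8.19% of members lower and 3.45% higher, against 4.99% and 3.88% of all genes. Of the 28 lower genes, 17 lay above 6.20 on both arrays of the pair, and over the 186 members above it on all 4 arrays the calls were 17 lower and 1 higher, 9.68% against 7.51% of all such genes.

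**Figure D1:**
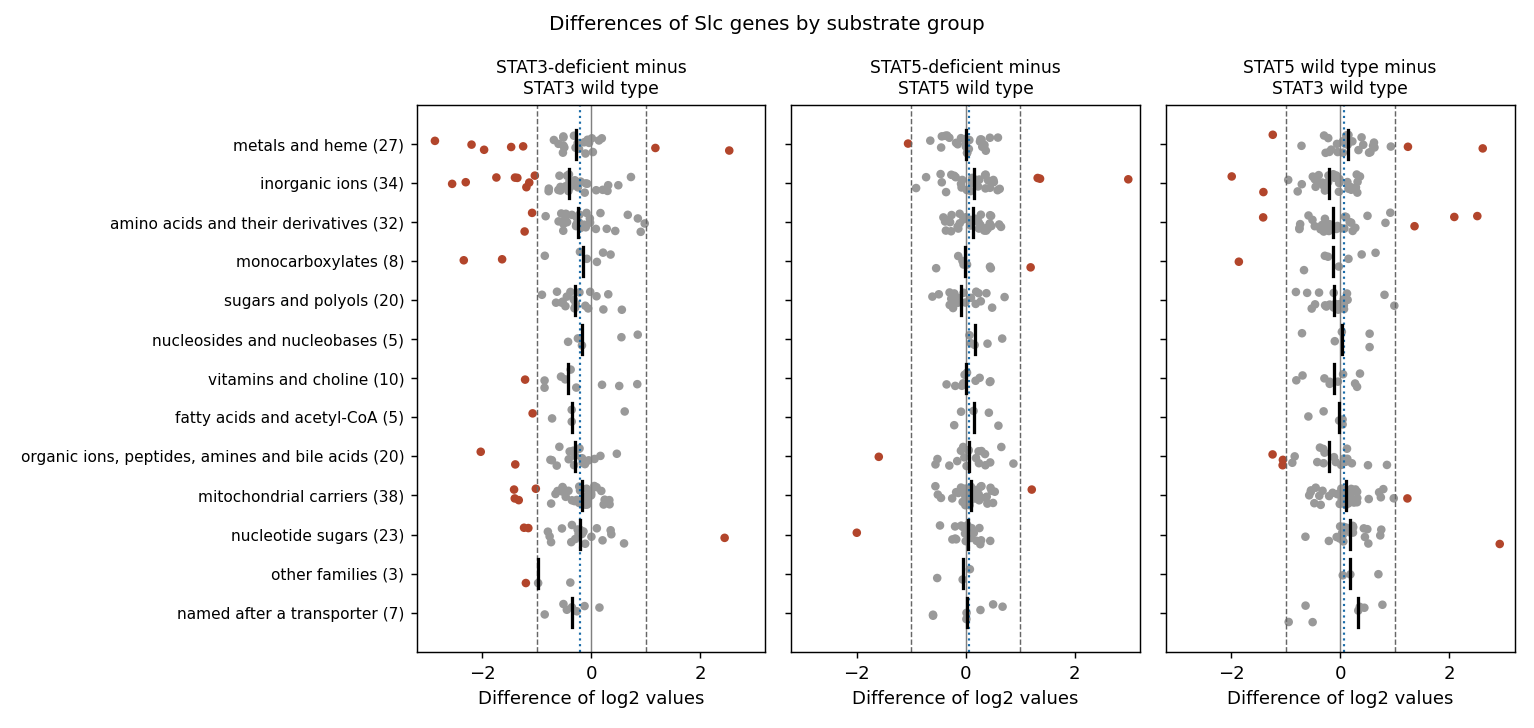
Differences of log2 values of the 232 members, 1 point each, by substrate group (number of members in brackets) in the 3 comparisons; red points lie at 2-fold or more, dashed lines mark 2-fold, black bars are group medians, the blue dotted line is the median of all genes kept, and vertical scatter within a group carries no meaning. Red points on the left panel lie mostly below 0, with 28 lower and 3 higher, while the middle panel has 3 lower and 5 higher.

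Among 27 kept metal and heme carriers, 5 were lower without STAT3 and 2 higher, counts that were the same with arrays centred, and they included the lowest and the highest difference of all members in that pair. Of all genes 7.23% were lower and 2.85% higher as deposited, and 4.74% and 4.13% with arrays centred. Slc41a2, a magnesium carrier, stood at 7.48 in STAT3 wild type, 4.62 in STAT3-deficient, 6.25 in STAT5 wild type and 6.25 in STAT5-deficient cells. It was lower without STAT3 (-2.87) and at 0.00 without STAT5; the STAT3-deficient array lay under 6.20, so the size of that difference is uncertain. Its relative Slc41a1, which exchanges magnesium for sodium, stood at 10.73, 8.77, 10.02 and 9.85 in the same order. It was lower without STAT3 (-1.96) and not past 2-fold without STAT5 (-0.18). The remaining gene of the family, Slc41a3, was at -0.52 and 0.06.

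The zinc importer genes of the Slc39 family went both ways. Slc39a8, which encodes ZIP8, stood at 9.97 in STAT3 wild type, 7.77 in STAT3-deficient, 10.10 in STAT5 wild type and 9.05 in STAT5-deficient cells. It was lower in both deficient cultures, by -2.19 (4.58-fold) and -1.06 (2.08-fold), and its controls were close to each other. Both of its probe sets gave the same direction, from -2.19 to -1.61 in the STAT3 pair and from -1.31 to -1.06 in the STAT5 pair. Slc39a14, which encodes ZIP14, an importer that IL-6 is known to induce in liver, stood at 10.25, 8.78, 10.30 and 10.75. It was low on the STAT3-deficient array alone (-1.47), against 0.45 without STAT5. Slc39a4, the intestinal zinc importer ZIP4, was at 7.81, 8.99, 8.74 and 8.44 and so higher without STAT3 (1.18). Slc39a6, which encodes ZIP6, was at 9.64 and 9.65 in the STAT3 pair and at 10.88 and 10.23 in the STAT5 pair. Of 12 kept genes of the Slc39 family, 2 were lower and 1 higher without STAT3 (7.23% and 2.85% of all genes were).

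In the zinc exporter family, Slc30a2, which loads zinc into vesicles, had the largest upward difference of any member in the STAT3 pair. Its levels were 5.33 in STAT3 wild type, 7.86 in STAT3-deficient, 7.94 in STAT5 wild type and 7.60 in STAT5-deficient cells. The STAT3 wild-type array was the low one and lay under 6.20, while the other 3 were close together, a difference of 2.54 without STAT3 and -0.34 without STAT5. Slc30a4, another vesicular exporter, stood at 9.72, 8.47, 10.35 and 10.21 and was lower without STAT3 (-1.25). Slc30a1, the exporter of the plasma membrane, was at 6.15, 6.29, 6.37 and 6.97, and the iron importer gene Slc11a2 at 8.64, 8.58, 9.25 and 8.81, with no difference past 2-fold in any comparison. The genes Slc11a1 and Slc40a1, which encode the phagosomal metal carrier and the iron exporter, lay under 6.20 on all 4 arrays.

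Genes for proteins that bind or sense metals were read beside these carriers. The list of these, chosen with earlier results known, held 13 kept zinc, copper and iron handling genes that are no solute carriers. Without STAT3, 5 were lower and 0 higher (7.23% and 2.85% of all genes were). Mt1, a metallothionein gene, stood at 12.61, 8.86, 11.58 and 12.65 in the order above, and Mt2 at 11.58, 8.28, 10.52 and 12.69. Both were lower without STAT3 (-3.75 and -3.31) and higher without STAT5 (1.06 and 2.17). Fth1, the ferritin heavy chain (-1.06), Aco1, an iron-sensing protein (-1.02), and Flvcr1, a heme exporter (-1.69), were the other lower genes, and none of these 3 passed 2-fold without STAT5. Fth1 and Aco1 passed 2-fold by less than the 0.24 between the array medians of the STAT3 pair. Mtf1, the zinc sensor that switches on metallothionein genes, was at -0.04 and -0.09.

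**Figure D2:**
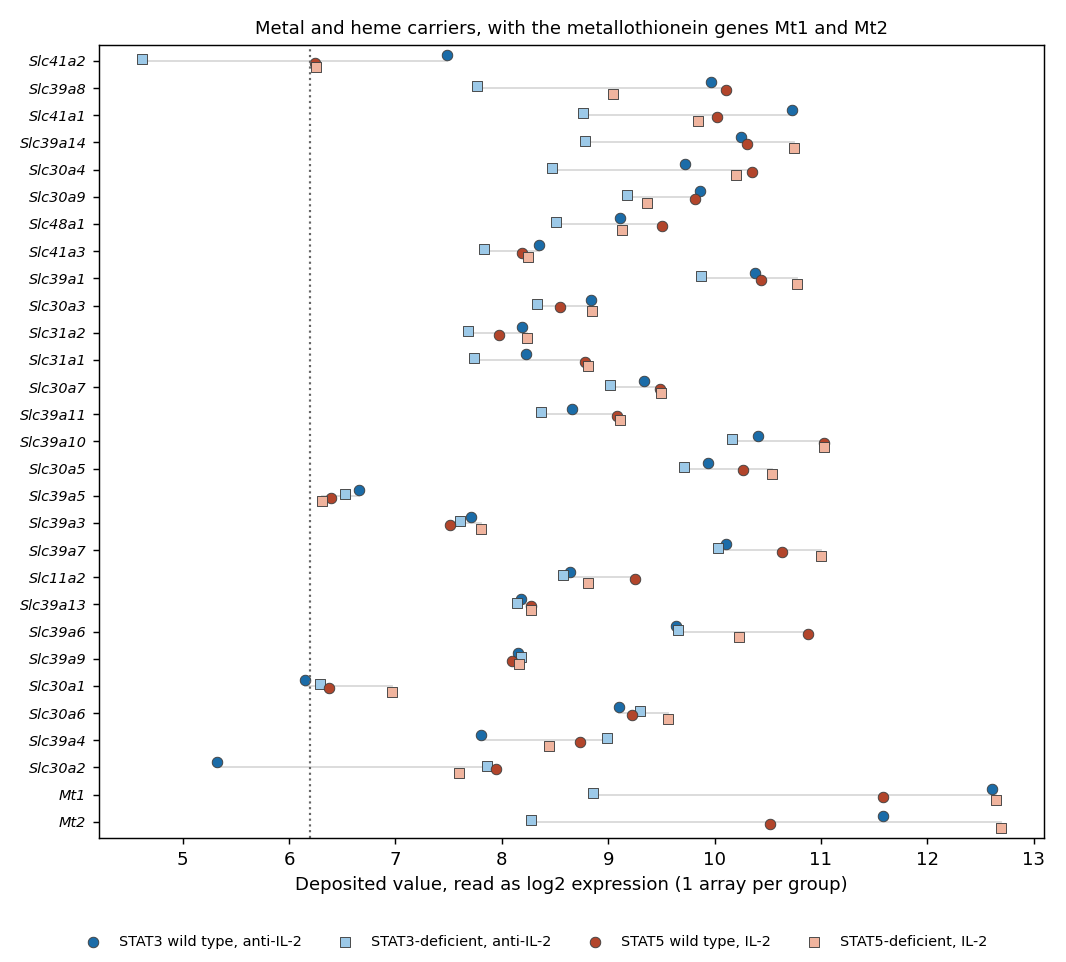
Deposited values (x axis, read as log2) of the 27 metal and heme carriers, in order of their difference without STAT3, and of Mt1 and Mt2, with 1 point per array; the dotted line is 6.20, and points are shifted slightly in height so that they do not hide each other. The STAT3-deficient array (pale blue squares) is lowest for Slc41a2 (4.62), Slc39a8 (7.77), Mt1 (8.86) and Mt2 (8.28), and the STAT3 wild-type array is lowest for Slc30a2 (5.33).

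Mtf1 protein binds a short core, TGCACNC or TGCGCNC, and the 250 bases before each RefSeq start site (GRCm38.p6) were searched for it on both strands; matches may overlap each other. This motif was chosen after the values were seen. It was present in 14 of 27 windows of the metal and heme carriers (51.9%, 22 genes with a window), in 63 of 237 windows of all members (26.6%, 182 genes) and in 21.4% of 32851 windows of the table. The windows of Mt1 and Mt2 held 1 and 3 matches. The windows of Slc30a4 and Slc41a1, metal carriers lower without STAT3, are shown because they lie wholly outside the annotated gene; the core was not limited to lower carriers, with 2 matches before Slc30a2 and 1 before each of Slc30a1, Slc30a5 and Slc39a3. They are printed with the core in capitals, as read on either strand. Slc30a4 is at chr2:122702664-122702913 (minus strand), with matches that begin at -228 and -92 relative to the start site. Slc41a1 is at chr1:131827762-131828011 (plus strand), with 1 match that begins at -231.
Slc30a4: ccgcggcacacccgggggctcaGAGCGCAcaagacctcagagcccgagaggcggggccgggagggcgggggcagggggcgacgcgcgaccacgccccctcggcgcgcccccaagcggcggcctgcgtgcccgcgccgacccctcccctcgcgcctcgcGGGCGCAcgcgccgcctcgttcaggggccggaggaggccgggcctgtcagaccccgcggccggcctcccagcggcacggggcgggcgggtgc
Slc41a1: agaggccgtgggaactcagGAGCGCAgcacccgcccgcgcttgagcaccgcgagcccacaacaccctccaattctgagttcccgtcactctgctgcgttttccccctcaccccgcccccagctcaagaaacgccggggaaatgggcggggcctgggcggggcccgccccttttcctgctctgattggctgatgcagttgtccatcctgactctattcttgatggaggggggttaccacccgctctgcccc
The spaced palindrome TTCNNNGAA, the core that STAT proteins bind, was searched in the same windows. It was in 0 of 38 windows of the 29 called members that had one, in 13 of 199 windows of the other members (6.53%) and in 7.02% of all windows. A match is a stretch of letters and not a measured binding site, and no match says only that these letters are not in this window.

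Inorganic ion carriers numbered 34, and 8 of them were called lower without STAT3, while 0 were called higher. Of all genes 7.23% were lower. The group's median difference was -0.41 as deposited. With arrays centred the calls fell to 5 lower and 0 higher, and the median moved to -0.17. Intensity-dependent centring gave the same 2 counts and a median of -0.17. Under these settings 4.74% and 4.99% of all genes were lower. Slc34a3, a sodium-phosphate cotransporter of the kidney, stood at 7.31, 4.76, 5.32 and 6.69, so the STAT3 wild-type and STAT5-deficient arrays were the high ones (-2.55 and 1.37). Slc24a3, a potassium-dependent sodium-calcium exchanger, stood at 7.77, 5.47, 7.55 and 7.49 and was low on the STAT3-deficient array alone (-2.30). Slc9a9, a sodium-proton exchanger of endosomes, was at 7.75, 6.01, 7.62 and 7.80 (-1.74), a call that was lost with its probe sets averaged (-0.21). The low arrays of Slc34a3, Slc24a3 and Slc9a9 lay under 6.20, so the sizes of their differences are uncertain. The potassium-chloride cotransporter gene Slc12a7 was lower by -1.40 without STAT3 and at -0.91 without STAT5. The 6 kept genes of the Slc4 family all lay below 0 without STAT3, from -1.35 (Slc4a11) to -0.24, and 3 of them passed 2-fold. With arrays centred 5 of the 6 lay below 0 and Slc4a11 alone passed 2-fold (-1.11). Slc20a1, a phosphate importer, and Slc12a2, the sodium-potassium-chloride cotransporter of most cells, were at -0.07 and -0.44.

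Slc4a2, which exchanges chloride for bicarbonate, stood at 10.63 in STAT3 wild type, 9.59 in STAT3-deficient, 9.85 in STAT5 wild type and 11.17 in STAT5-deficient cells. It was lower without STAT3 (-1.03, or -0.79 with arrays centred) and higher without STAT5 (1.32). Slc12a1, a sodium-potassium-chloride cotransporter known from the kidney, stood at 5.76, 4.57, 4.35 and 7.33. The STAT5-deficient array alone lay above 6.20, a difference of 2.99, the largest of any member in that pair, while both arrays of the STAT3 pair lay under it. Averaging its probe sets gave 1.61 without STAT5 and -0.27 without STAT3. Stk39, a kinase that activates such cotransporters, was 1.64 higher without STAT3 and -1.19 without STAT5.

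As deposited, amino acid carriers had more calls between the controls than in either deletion pair. Of 32 kept genes, 2 were lower without STAT3, Slc38a6, a sodium-coupled neutral amino acid carrier by family (-1.22, or -0.95 with its probe sets averaged), and the creatine carrier gene Slc6a8 (-1.08). Of all genes 7.23% were lower without STAT3. With arrays centred 0 of the 32 were lower and 3 higher without STAT3, and 1 was lower and 5 higher between the controls. The shares of all genes were then 4.74% and 4.13% without STAT3, and 1.83% and 4.77% between the controls. With intensity-dependent centring 1 of the 32 was lower and 3 higher without STAT3, and the same counts were found between the controls. The shares of all genes were then 4.99% and 3.88%, and 2.75% and 2.24%. As deposited 0 of the 32 passed 2-fold without STAT5 (3.60% of all genes did), where Slc36a3 lay farthest at 0.65. Between the controls, 3 of the 32 were higher and 1 lower in STAT5 wild-type cells (2.35% and 2.95% of all genes were). These control arrays differ in IL-2 and in floxed line, with no deletion in either. Slc7a3, a carrier of arginine and lysine, stood at 6.46 in STAT3 wild type, 7.37 in STAT3-deficient, 8.98 in STAT5 wild type and 9.06 in STAT5-deficient cells. The arrays with IL-2 were both higher than those with anti-IL-2, and the wild-type difference was 2.52 (5.73-fold). Slc6a9, a glycine carrier, was at 7.33, 7.62, 9.43 and 9.06 in the same way (2.10, or 4.27-fold). Its second probe set differed by 0.51 between the controls, so the size of that difference is uncertain. Slc43a1, a carrier of large neutral amino acids, was at 6.15, 7.13, 7.52 and 7.37 (1.37), and its relative Slc43a2 was at 9.34, 8.79, 7.92 and 8.37 (-1.41, or -0.62 with its probe sets averaged).

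Other amino acid carriers of T cells differed less. The glutamine carrier gene Slc1a5 stood at 10.79, 10.88, 11.29 and 11.03, Slc38a1 at 10.72, 10.62, 10.83 and 11.17, and Slc38a2 at 10.72, 10.59, 10.79 and 11.03. Slc7a1, the main importer of arginine in many cells, was at 10.67, 11.34, 11.59 and 12.00, a wild-type difference of 0.92 that reached 1.11 with arrays centred. Slc7a6, a cationic and neutral amino acid exchanger, was at 9.90, 9.42, 10.10 and 9.99. None of these 5 passed 2-fold in any comparison as deposited.

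In all, 15 members differed by 2-fold or more between the controls (6.47%, against 5.30% of all genes), 7 higher (3.02%, against 2.35%) and 8 lower (3.45%, against 2.95%) in STAT5 wild-type cells. The share lower was 53.3% as deposited, 30% with arrays centred (14 higher, 6 lower) and 40% with intensity-dependent centring (9 higher, 6 lower). All genes moved the same way with arrays centred, to 4.77% higher and 1.83% lower, and stood at 2.24% and 2.75% with intensity-dependent centring. The median over the members was 0.02 and over all genes 0.06, and arrays centred gave 0.21 and 0.25. The 5 largest differences upward were in Slc35d3 (2.93), Slc30a2 (2.62), Slc7a3, Slc6a9 and Slc43a1, and downward in Slc34a3 (-1.99), Slc16a9 (-1.86), Slc43a2, Slc12a1 (-1.41, or -0.46 with its probe sets averaged) and Slc22a6, an organic anion carrier of the kidney (-1.24, or -0.11). Slc35d3, Slc30a2, Slc43a1, Slc34a3, Slc16a9, Slc12a1 and Slc22a6 had at least 1 control array under 6.20, so the sizes of those differences are uncertain. Over members above 6.20 on all 4 arrays, 6 of 186 were past 2-fold between the controls (3.23%), against 3.47% of all such genes. This comparison shares 1 array with each deletion comparison, so a gene that is extreme on a control array enters both.

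Of 8 kept members of the monocarboxylate family, 2 were lower without STAT3 (7.23% of all genes were). Slc16a9 stood at 6.95, 4.62, 5.10 and 6.29, high in STAT3 wild-type and STAT5-deficient cells (-2.34 and 1.19, or -1.71 and 0.73 with its probe sets averaged). The low array of each pair lay under 6.20, so the sizes of both differences are uncertain. Slc16a10, which carries aromatic amino acids, stood at 10.43, 8.80, 10.15 and 10.61 and was low on the STAT3-deficient array alone (-1.63). All 4 of its probe sets past the limit lay below 0 in that pair, from -1.63 to -0.58. Slc16a1, a lactate carrier of proliferating T cells, was at 10.62, 10.83, 11.27 and 11.21. Emb, a protein that escorts such carriers to the membrane, was lower without STAT3 (-1.72) and at 0.29 without STAT5.

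Mitochondrial carriers were the largest group, with 38 kept genes, 4 lower without STAT3 and 1 higher without STAT5 (7.23% and 1.86% of all genes were). With arrays centred 3 of the 38 were lower without STAT3, against 4.74% of all genes. Slc25a24, an ATP and phosphate exchanger, stood at 10.21, 8.81, 10.23 and 10.23, and Slc25a15, the ornithine carrier, at 10.77, 9.44, 10.41 and 10.95. Both were low on the STAT3-deficient array alone (-1.40 and -1.33), as was Slc25a35 at 7.59, 6.18, 7.12 and 7.36 (-1.41). Slc25a26, which brings S-adenosylmethionine into mitochondria, was at 7.75, 6.73, 7.21 and 8.42, lower without STAT3 (-1.01, or -0.77 with arrays centred) and higher without STAT5 (1.21). Slc25a33, a pyrimidine nucleotide carrier, was higher in STAT5 wild type than in STAT3 wild type (1.23). Slc25a5, an ADP/ATP exchanger, stood at 13.85, 13.63, 14.17 and 14.03.

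Peptide, organic ion and bile acid carriers were poorly represented, with 20 of 47 measured genes kept. Slc15a2, a proton-coupled peptide importer, stood at 7.92 in STAT3 wild type, 5.89 in STAT3-deficient, 7.94 in STAT5 wild type and 6.34 in STAT5-deficient cells. It was lower in both deficient cultures (-2.03 and -1.59) and its controls were alike, though the STAT3-deficient array lay under 6.20. Its second probe set past the limit differed by -0.29 and 0.38, so the probe sets disagree in the STAT5 pair, and averaging all of them gave -0.97 and -0.43. Slc10a6, a carrier of steroid sulfates, was lower without STAT3 (-1.39), with 2 arrays under 6.20.

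Nucleotide sugar carriers feed glycosylation in the Golgi. The group of that name holds all Slc35 genes by family number alone, so it does not show what each one carries, and 23 of 26 measured genes were kept. Slc35d3 stood at 4.05 in STAT3 wild type, 6.50 in STAT3-deficient, 6.98 in STAT5 wild type and 4.98 in STAT5-deficient cells. It was higher without STAT3 and lower without STAT5, and 1 array of each pair lay under 6.20, so the sizes of both differences are uncertain. Slc35f6 (-1.23, or -0.68 with its probe sets averaged) and Slc35f5 (-1.15) were lower without STAT3, and neither passed 2-fold with arrays centred.

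The remaining groups held few calls. Of all genes 10.1% passed 2-fold without STAT3, 3.60% without STAT5 and 5.30% between the controls. No sugar or polyol carrier of 20 passed 2-fold in any comparison, with Slc37a2, a sugar phosphate exchanger, farthest without STAT3 (-0.90) and Slc2a6, a hexose carrier, farthest without STAT5 (0.71). No nucleoside or nucleobase carrier of 5 did so either as deposited. Slc29a1, the equilibrative nucleoside carrier of the plasma membrane, stood at 10.25, 11.11, 10.79 and 10.96, and its difference of 0.86 without STAT3 became 1.10 with arrays centred. Slc29a3, its lysosomal relative, was at 0.67 without STAT5. Among vitamin and choline carriers, Slc5a7, the choline carrier of nerve endings, was lower without STAT3 (-1.21) with 3 arrays under 6.20. Slc46a3 (0.46) was farthest without STAT5, while the folate carrier gene Slc19a1 was at 0.20 and 0.26 and the multivitamin carrier gene Slc5a6 at 0.52 and -0.04. Of the Slc27 fatty acid carriers, Slc27a5 was at -1.07 without STAT3, and Slc27a1 at 0.60 without STAT5. Of 3 kept genes of families outside these groups, Slc66a2 was at -1.20 without STAT3, with both probe sets past the limit below 0 (-1.20 and -1.80), and Slc49a4 was at -0.97 and -0.52. The 7 genes that are no transporters had 0 calls in any comparison, with Slc36a1os farthest in both pairs (-0.85 and 0.68).

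**Figure D3:**
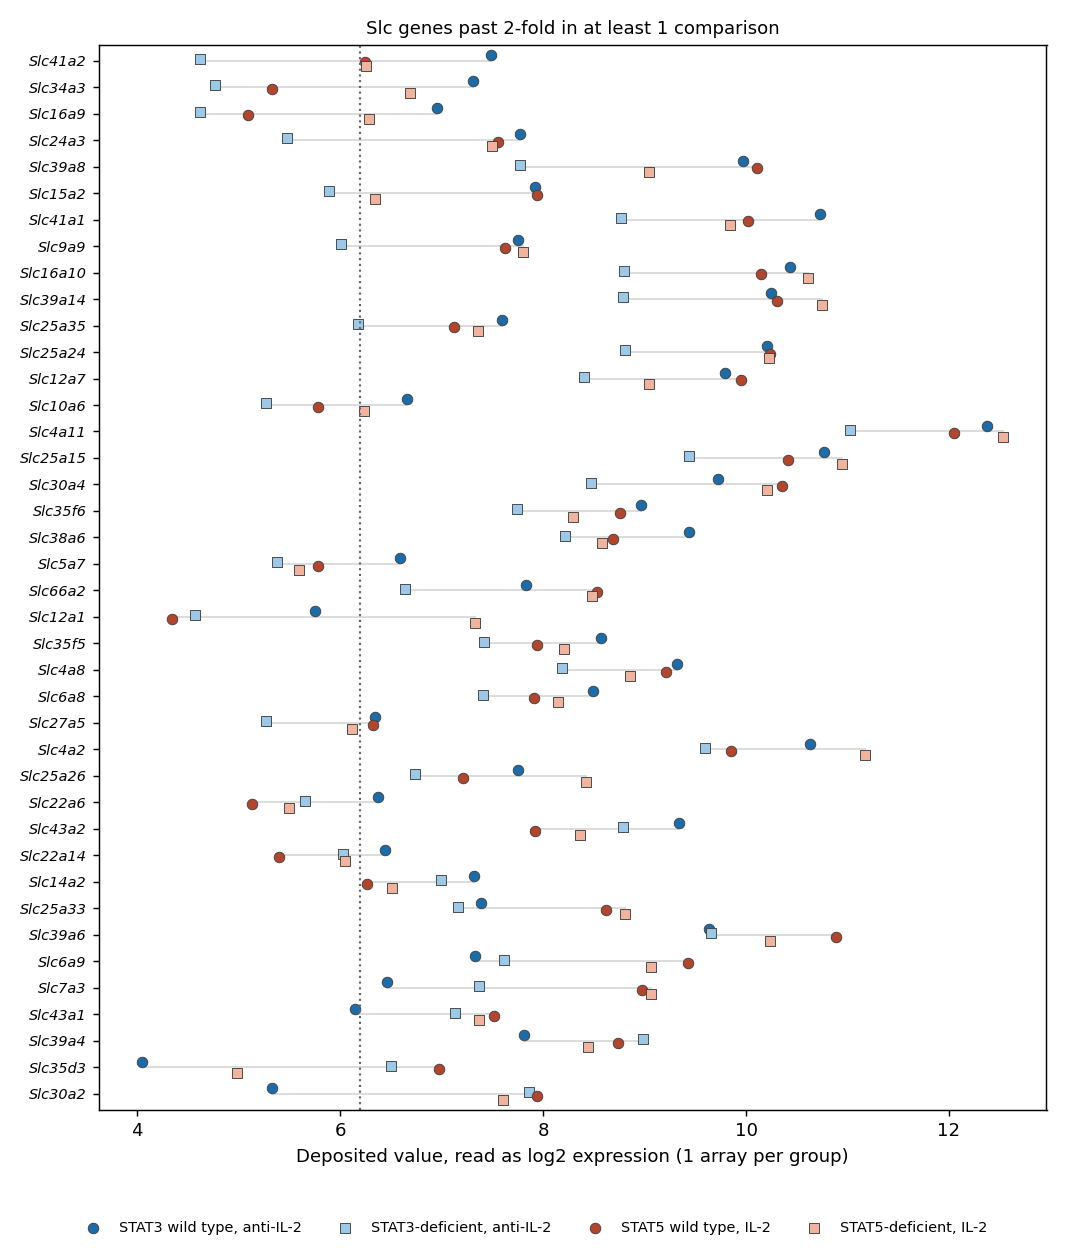
Deposited values (x axis, read as log2) of the 40 members past 2-fold in at least 1 of the 3 comparisons, in order of their difference without STAT3, with 1 point per array; the dotted line is 6.20, and points are shifted slightly in height. The STAT3-deficient array (pale blue squares) is left of the other 3 for genes such as Slc24a3 (5.47), Slc39a14 (8.78) and Slc25a24 (8.81), and both arrays with IL-2 (red and pale red) are right of the others for Slc7a3 and Slc6a9.

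In STAT5-deficient cells 8 members passed 2-fold (3.45%, against 3.60% of all genes), 5 higher (2.16%, against 1.86%) and 3 lower (1.29%, against 1.74%). The median difference was 0.08 for the members and 0.06 for all genes. The 5 higher genes were Slc12a1, Slc34a3, Slc4a2, Slc25a26 and Slc16a9, and the 3 lower ones Slc35d3, Slc15a2 and Slc39a8. Only Slc4a2, Slc25a26 and Slc39a8 of these lay above 6.20 on all 4 arrays.

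All 8 were also past 2-fold without STAT3, which is 100% of the STAT5 calls and 25.8% of the 31 STAT3 calls, and 3.45% of the members against 1.66% of all genes. Over members above 6.20 on all 4 arrays 3 of 186 (1.61%) were past 2-fold in both pairs, against 93 of 10216 genes (0.91%), and the other 5 of the 8 lay under 6.20 on at least 1 array. Over all genes 206 were past 2-fold in both pairs, 46% of the 448 STAT5 calls and 16.4% of the 1254 STAT3 calls. The pairs share no array. Of the 8 members, 5 were lower without STAT3 and higher without STAT5 (0.555% of all genes were), 1 the other way round, Slc35d3 (0.177%), and 2 lower in both, Slc15a2 and Slc39a8 (0.547%). No member was higher in both (0.378%). With arrays centred or with intensity-dependent centring 5 members were past 2-fold in both pairs, since Slc12a1, Slc4a2 and Slc25a26 then missed 2-fold without STAT3. Of the 28 members lower without STAT3, 15 lay above 0 without STAT5, with a median there of 0.09. In that pair 142 of all 232 members and 7392 of all 12440 genes lay above 0, with medians of 0.08 and 0.06. Across the 232 members the differences of both pairs had a Pearson r of -0.12 and a Spearman rho of 0.03, and across all genes 0.08 and 0.11. Members are not independent and share the 4 arrays, so these are descriptions.

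**Figure D4:**
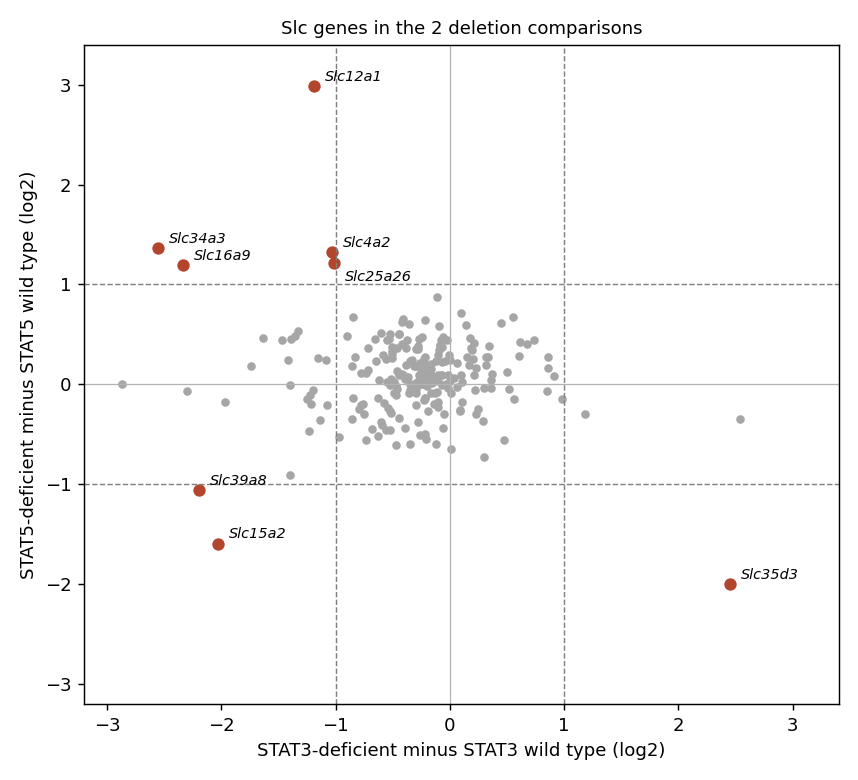
Difference without STAT3 (x axis) against difference without STAT5 (y axis), log2, for the 232 members, 1 point each; dashed lines mark 2-fold and red points are the 8 members past it in both pairs. Of these, 5 lie at the upper left (Slc12a1 highest at 2.99), Slc35d3 at the lower right and Slc39a8 and Slc15a2 at the lower left.

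Transport genes without an Slc symbol, on lists chosen with earlier results known, were counted the same way. Of 67 kept genes on 7 lists of pumps, other transporters, chaperones, metal handling proteins and regulators, 8 were lower and 4 higher without STAT3, 4 lower and 3 higher without STAT5, and 4 higher and 3 lower between the controls. These lists hold the deleted genes; over the 64 others, 7 were lower and 4 higher without STAT3 and 2 lower and 3 higher without STAT5. Of all genes 7.23% were lower and 2.85% higher without STAT3, 1.74% and 1.86% without STAT5, and 2.95% and 2.35% between the controls. Of 19 ABC transporter genes, 0 were lower and 1 higher without STAT3 (Abcd3, 1.04), and of 12 kept major facilitators and pyruvate carriers 0 passed 2-fold in any comparison. Of 5 Slco organic anion carriers, 1 was higher without STAT3, Slco4a1, at 7.23 and 8.23. Atp1b1, a subunit of the sodium pump that drives many solute carriers, was 1.09 higher without STAT3. Among regulators known to act on carrier genes, Hif1a was lower without STAT3 (-1.59).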

How the data were processed

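Total RNA of 4 cultures was hybridised to 4 arrays. Per the submitters' processing notes the authors used Affymetrix Power Tools; its version, algorithm and background step are unstated in the labels. Values as deposited, from 2.48 to 15.09, were read as log2 expression; the base is not stated, and another base would change every fold. Each array holds between 3608 and 4276 distinct values over 45101 probe sets, so equal values are common. Array medians were left as deposited.

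Groups came from the titles, which the genotype text of each deficient sample contradicts by ending in words for wild type. The platform annotation names 1 gene for 34958 probe sets. Those naming several or none were not used. A gene's value is that of its probe set with the highest mean over the arrays. All 232 members' Entrez identifiers matched RefSeq (GRCm38.p6). Genes whose highest value exceeded 6.20 (percentile 50) were kept, 12440 of 18194. Differences of 1 or more were called. Promoter windows came from RefSeq.

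The members, lists and substrate groups (by family number) were chosen with earlier results of these data known. The genes that are no transporters were moved to a group of their own after the data were seen. Always named were a fixed list of carriers, as far as they are reported here, plus per deletion up to 10 members past 2-fold in each direction, 5 between controls, members called in both deletions and each group's farthest member; any further gene was picked with its values in view. Alternatives were averaged probe sets, dropping cross-matching probe sets, no filter, a stricter one (percentile 75, 8.29), array-median or intensity-dependent (loess, span 0.4) centring, and 1.5-fold or 3-fold limits; the 2 alternatives that count fewer members were chosen after seeing the data. Python 3.11.15, pandas 2.3.3 and statsmodels 0.14.6 were used, and the code was tested on simulated data.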

Additional observations from a re-analysis of the deposited data

Results flagged for a closer look

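There were 6 members past 2-fold in opposite directions in the STAT3 and the STAT5 deletion pairs; the difference between the pairs was not tested, since each group had 1 array. The STAT3 difference minus the STAT5 difference was -4.17 for Slc12a1, -3.92 for Slc34a3, -3.53 for Slc16a9, -2.36 for Slc4a2 and -2.23 for Slc25a26, which were lower without STAT3 and higher without STAT5, and 4.45 for Slc35d3, which was higher without STAT3 and lower without STAT5. Over all genes, 0.555% were lower without STAT3 and higher without STAT5, and 0.177% the other way round. Of the 6 members, Slc4a2 and Slc25a26 lay above 6.20 on all 4 arrays. With arrays centred Slc4a2 (-0.79), Slc25a26 (-0.77) and Slc12a1 (-0.94) missed 2-fold without STAT3. The pairs also differed in culture, with anti-IL-2 in the STAT3 pair and IL-2 in the STAT5 pair, so the deleted gene and the IL-2 condition cannot be told apart.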

How the results depend on the processing

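With 1 array per group no replicate could be left out, and no paired analysis was possible because no group has a replicate. The 31 calls without STAT3 became 18 with the filter at percentile 75, 65 at 1.5-fold and 11 at 3-fold. That filter kept 123 members, of which 14.6% were called, against 10.0% of all genes. As set at first these shares were 13.4% and 10.1%. At 1.5-fold 28.0% of members and 24.9% of all genes were called, and at 3-fold 4.74% and 4.20%. The 8 calls without STAT5 became 5 with probe sets averaged, 3 with that filter, 25 at 1.5-fold and 3 at 3-fold. In this order 2.43%, 2.44%, 10.8% and 1.29% of members were called, against 3.01%, 3.29%, 11.6% and 1.15% of all genes. The 15 calls between controls became 9 with probe sets averaged, 5 with that filter, 51 at 1.5-fold and 6 at 3-fold. In this order 4.37%, 4.07%, 22.0% and 2.59% of members were called, against 4.31%, 4.61%, 20.8% and 1.42% of all genes. Over the members above 6.20 on all 4 arrays, chosen after seeing the data, the calls were 18, 3 and 6. These were 9.68%, 1.61% and 3.23% of such members, against 7.51%, 2.17% and 3.47% of all such genes. The 8 members past 2-fold in both deletions became 5 with probe sets averaged, 3 with the stricter filter, 5 with arrays centred, 5 with intensity-dependent centring, 2 at 3-fold, and 3 over the members above 6.20 on all 4 arrays. The median without STAT3 went from -0.28 to -0.031 with arrays centred, which removes the 0.24 between array medians. The difference of Slc66a2 without STAT3 went from -1.20 to 0.25 without cross-matching probe sets, the only called difference of a named member that turned; the 0.25 is that of a probe set under 6.20 on all 4 arrays, while its 2 probe sets past 6.20 were at -1.20 and -1.80. Without replicates the spread between cultures is unknown; probe sets of the same gene had a median SD of 0.23 without STAT3, 0.17 without STAT5 and 0.21 between controls. Low signal limits genes near 6.20, where no detection call was used.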
